A study of Mus musculus with 12 samples.

Results

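Axon guidance genes encode the cues and receptors by which axons choose their path, and here they were followed in sciatic dorsal root ganglia (DRG) after sciatic nerve axotomy (SNA), a cut of the peripheral nerve, and after environmental enrichment (EE). The genes were taken by name from the deposited count table. They are the semaphorins with their plexin and neuropilin receptors, the Eph receptors with the ephrins, the Slits with the Robo receptors, and the netrins with Dcc and the Unc5 receptors. Of the 44345 gene names in the table, 71 matched. Among these were 20 semaphorins, 11 plexins and neuropilins, 14 Eph receptors, 8 ephrins, 7 Slits and Robos and 9 netrins and netrin receptors, and the other 2, Unc50 and Unc5cl, share only letters with the Unc5 receptors and are not netrin receptors. The samples were C57BL/6 mice aged 5 to 8 weeks that spent 10 days in standard housing (SH) or in EE and then received a sham operation or SNA, and lumbar L4 to L6 ganglia were collected 24 h later. Each housing had a sham group (SH Sham, EE Sham) and an axotomy group (SH SNA, EE SNA). These 4 groups had 3 samples each, and every sample was a pool of 2 mice. No allele or agent was used beyond housing and surgery, and the study describes the EE Sham samples as coming from an earlier dataset, so that dataset cannot be told apart from housing among the sham samples or from surgery among the EE samples, and it enters the interaction and the fits over both housings or both surgeries.

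Guidance cues act over short or long range and either repel or attract a growth cone. Class 3 semaphorins are secreted and signal through neuropilins that pair with plexins, whereas the other vertebrate semaphorins are held at the membrane and mostly bind plexins directly. Ephrins sit on the cell surface and bind Eph receptor tyrosine kinases, Slits are secreted ligands of Robo receptors, and netrins attract axons through Dcc and repel them through Unc5 receptors. Adult sensory neurons and the glia around them keep many of these genes, and a cut of the peripheral branch is known to start a growth programme in the neurons.

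The reads counted on genes came to 11343579 to 22871460 per sample, and the guidance genes took 0.221% to 0.251% of them. Marker genes of sensory neurons summed to 9439 to 11131 CPM in the 12 samples. CPM are reads on the gene, scaled to the library's total over the genes tested and by edgeR's TMM factor. The injury gene Atf3 read 110 to 168 CPM in the sham samples and 454 to 549 CPM after SNA, so that every library matched its surgery label. Markers of other cells moved too. In edgeR's fit over both housings, at an adjusted p of 0.05, 4 of 8 sensory neuron markers were lower after SNA. Higher were 4 of 5 Schwann cell, 3 of 6 macrophage, 2 of 5 satellite glia and 2 of 5 fibroblast markers. So were 1 of 4 neutrophil, 1 of 6 endothelial and 1 of 5 pericyte and smooth muscle markers. Over all genes tested, 11.4% were called higher and 11% lower. Neutrophil markers summed to 55.9 to 173 CPM in the sham groups and 96.6 to 572 CPM after SNA. The highest sum was in EE SNA replicate 3, where S100a9 read 323 CPM. The summed Schwann cell level was 5951 to 8440 CPM in the sham groups and 7208 to 11513 CPM after SNA, and the summed macrophage level was 41.2 to 47.2 and 49.9 to 77.3 CPM. Of the sympathetic neuron markers, Dbh and Slc6a2 read 5.04 and 5.36 CPM in EE Sham replicate 3 and at most 0.725 CPM in any other sample. Skeletal muscle markers summed to between 2.46 and 750 CPM. The highest sum was in SH SNA replicate 2, where Acta1 read 263 CPM, and the other groups reached at most 135 CPM. In whole ganglia, fewer cells of a type and less RNA per cell cannot be told apart, and the part of these markers in the values below was not tested.

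Per length, the guidance genes spanned a wide range of levels in the ganglia. The means over the 12 samples, in fragments scaled to gene length and library total (FPKM), were 10 or more for 11 of the 71 genes and under 1 for 21. The highest was Plxnc1, the receptor of the membrane-anchored Sema7a, with a mean of 42.5 FPKM and a range of 35.1 to 47.7 over the 12 samples, and Sema7a itself had 19.1 FPKM (15.0 to 24.0). Among the semaphorins Sema3b led with 30.7 FPKM (19.7 to 39.4), followed by Sema4f with 20.9 FPKM (17.0 to 26.7). Efna1 was the highest ephrin with 17.7 FPKM (14.7 to 20), Slit1 the highest gene of the Slits and Robos with 11.1 FPKM, and Ephb6, an Eph receptor without an active kinase, the highest Eph receptor with only 6.60 FPKM. Netrins and their receptors were low, from 2.42 FPKM for Ntn4 down to 0.0478 FPKM for Dcc. Unc50, which is no guidance gene, had 25.7 FPKM. In the plot of levels by family, 4 ephrins lay above all Eph receptors but Ephb6.

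**Figure D1:**
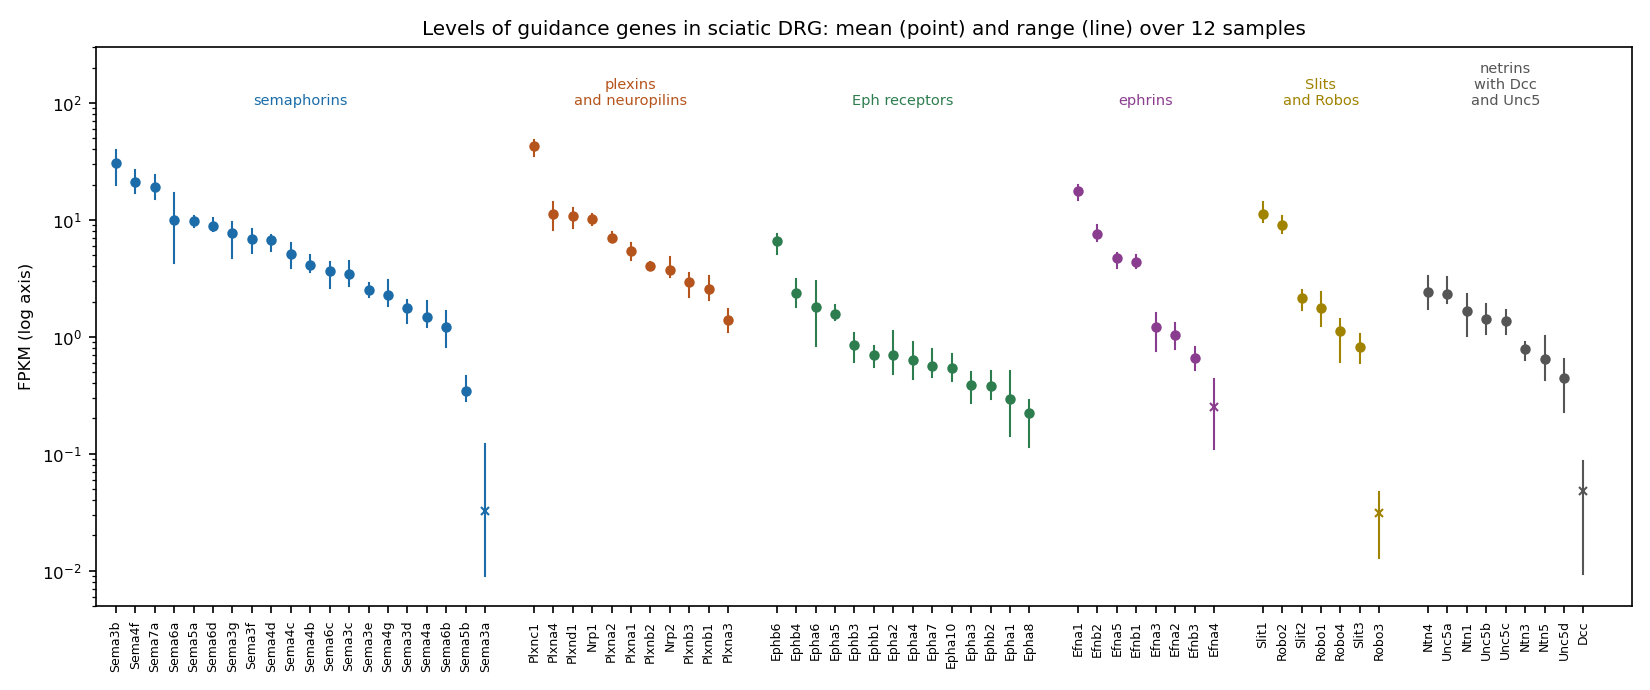
Level of each guidance gene in FPKM (log axis), by family and in order of level, as the mean over 12 samples (point) and the range from the lowest to the highest sample (line); crosses mark genes that did not pass the filter on low counts, and Unc50 and Unc5cl are left out. Plxnc1 stands highest at 42.5 FPKM, and the Eph receptors lie below the leading ephrins.

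The first question was which guidance genes changed after SNA. Of the 71 genes, 66 passed the filter on low counts, and over both housings 18 of them changed, 7 higher and 11 lower (edgeR's quasi-likelihood test on 12 samples with housing as a covariate, Benjamini-Hochberg adjusted p of 0.05 over 16238 genes). This was 27.3% of the guidance genes tested, beside 22.4% of all genes, with 11.4% of all genes called higher and 11% called lower. These guidance genes had been chosen with earlier results of these data known. At an unadjusted p of 0.05, the threshold of the study, 30 were called beside 34.7% of all genes. The median absolute log2 fold change was 0.19 for the guidance genes and 0.12 for all genes tested, and the signed medians were 0.01 and 0.0071. Only Sema6a among the 66 moved by 1 or more on the log2 scale, and 13 of the 18 changes were below 0.5 in size. The genes called had a median of 6.78 FPKM (0.448 to 20.9), against 2.21 FPKM (0.223 to 42.5) for the 48 that were not called. Genes of more reads are called more readily at a given change, so this difference is not read as a trait of the response. By kind of protein, 9 of 32 receptors changed, 2 higher and 7 lower, as did 7 of 20 membrane-bound ligands, 4 higher and 3 lower, and 2 of 13 secreted ligands, 1 in each direction.

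**Figure D2:**
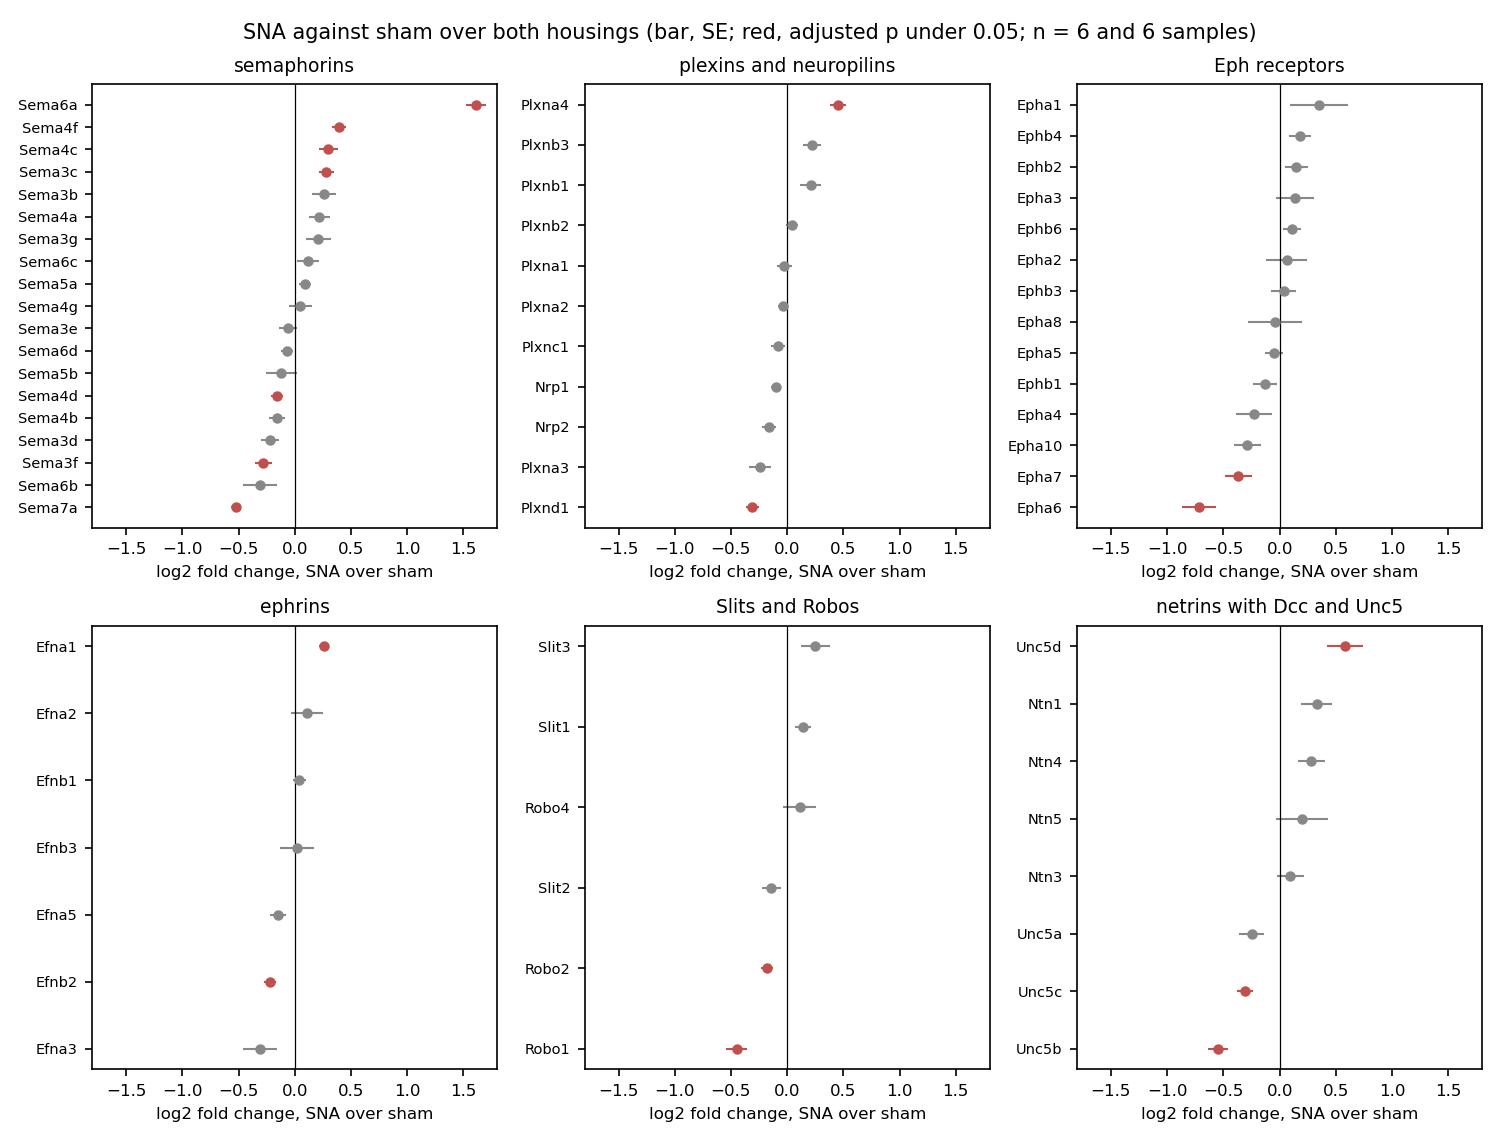
Log2 fold change of SNA over sham across both housings (x axis) for each guidance gene tested, in 1 panel per family; points are estimates, bars their SE, and red marks an adjusted p under 0.05. Sema6a stands alone at 1.61, and the red points of the Eph receptors and of the Slits and Robos are all below 0.

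Semaphorins held the genes with the lowest adjusted p in each direction, Sema6a and Sema7a. Sema6a, a transmembrane semaphorin that binds class A plexins, read 41.4, 44.8 and 38.4 CPM in SH Sham and 148, 141 and 136 CPM in SH SNA. In EE it read 50.4, 37.1 and 49.4 CPM after sham and 141, 104 and 131 CPM after SNA. Every SNA sample stood above every sham sample, by 3.06-fold on average (log2 fold change 1.61 ± 0.087 (SE), adjusted p = 1.08e-09, 6 against 6 samples). Sema7a, which is tied to the membrane by a lipid anchor and binds Plxnc1 and integrins, moved the other way. The gene lies on the plus strand of GRCm38 at chr9:57940112-57962865. It read 70.6, 78.6 and 78.2 CPM in SH Sham and 49.7, 53.1 and 51.5 CPM in SH SNA, and 69.6, 77.4 and 73.9 CPM in EE Sham against 54.9, 51.5 and 52.3 CPM in EE SNA. The groups did not overlap, and the fall was to 0.698 of the sham level (log2 fold change -0.52 ± 0.044, adjusted p = 2.14e-07). Its receptor Plxnc1 read 311 to 385 CPM after sham and 280 to 347 CPM after SNA, with a log2 fold change of -0.083 ± 0.062 that did not pass the test (adjusted p = 0.371).

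Class 4 semaphorins, which are transmembrane ligands of B and D plexins, changed in both directions. Sema4f, on the minus strand at chr6:82911885-82939769, rose from 88.3, 91.8 and 104 CPM in SH Sham to 113, 126 and 138 CPM in SH SNA. In EE Sham it read 89.7, 92.7 and 93.6 CPM, and in EE SNA 114, 108 and 136 CPM, again with no overlap (log2 fold change 0.39 ± 0.062, adjusted p = 0.000189). Sema4c rose less, by 0.30 ± 0.085 on the log2 scale (adjusted p = 0.0179), with sham samples at 18.1 to 25.5 CPM and SNA samples at 22.4 to 29.2 CPM. The 2 ranges overlapped, the call was lost without EE Sham replicate 1 (adjusted p = 0.051), and 7.27% of the exon bases of Sema4c lie under a gene of the opposite strand. Sema4d, the ligand of Plxnb1, fell by 0.16 on the log2 scale (SE 0.053, adjusted p = 0.0388), from 44.5 to 47.9 CPM after sham to 35.8 to 44.5 CPM after SNA. Its call was lost when 1 of 8 samples was left out, namely SH Sham replicate 1, 2 or 3, SH SNA replicate 1 or 3, EE Sham replicate 1 or 3 or EE SNA replicate 3 (adjusted p = 0.0507 to 0.0845). Sema4a and Sema4b, at log2 fold changes of 0.22 and -0.16, did not pass the adjusted threshold (adjusted p = 0.118 and 0.123).

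Of the 6 secreted class 3 semaphorins tested, 1 rose and 1 fell, beside 22.4% of all genes called in either direction. Sema3c, a ligand of both neuropilins, read 22.9, 23.0 and 22.1 CPM in SH Sham and 31.7, 27.5 and 25.2 CPM in SH SNA. The EE Sham samples stood at 24.5, 19.4 and 23.6 CPM and the EE SNA samples at 26.4, 27.5 and 25.4 CPM, so that all SNA samples were above all sham samples (log2 fold change 0.28 ± 0.068, adjusted p = 0.00736). Sema3f, a repellent that signals through Nrp2, fell by 0.28 on the log2 scale (SE 0.076, adjusted p = 0.0141). It read 23.6 to 28.1 CPM after sham and 18.1 to 24.3 CPM after SNA, with overlap. Sema3b, the most abundant semaphorin, read 86.3 to 151 CPM after sham and 116 to 171 CPM after SNA, and its log2 fold change of 0.26 ± 0.11 did not pass the adjusted threshold (adjusted p = 0.116). In EE Sham replicate 2, Sema3b stood at 151 CPM against 86.3 and 114 CPM in the other EE Sham samples. Class 5 held no call, and of the 4 class 6 semaphorins only Sema6a was called.

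Promoter sequences, from RefSeq on GRCm38.p6, were available for 61 of the 71 genes, in 77 windows from 250 bases before to 50 bases after a start site. They were searched on both strands for 3 motifs of factors that act in injured neurons, the AP-1 motif TGANTCA, the ATF/CRE motif TGACGTCA and the STAT motif TTCNNNGAA, where N is any base. The AP-1 motif was in 3 of the 77 windows (3.9%) and in 7.81% of all 32851 windows. In the 21 windows of genes called after SNA it was in 2, those of Sema4c and Sema4d. The called genes Sema6a, Sema3f, Plxna4 and Unc5d have no window here and were not searched. The ATF/CRE motif was in 1 of the 77 windows, that of Epha2, beside 1.79% of all windows, and the STAT motif was in 3, of Efna3, Sema3e and Epha3, beside 8.3%. Neither was in a window of a called gene. The windows of Sema4c and Sema4d that hold the AP-1 motif are shown because these genes moved in opposite directions, and those of Sema4f and Sema7a because these semaphorins, 1 for each direction, had no overlap between SNA and sham. Capitals mark the motif, which starts 22 bases before the start site in Sema4c and 239 bases before it in Sema4d.
Sema4c, chr1:36558332-36558631, minus strand: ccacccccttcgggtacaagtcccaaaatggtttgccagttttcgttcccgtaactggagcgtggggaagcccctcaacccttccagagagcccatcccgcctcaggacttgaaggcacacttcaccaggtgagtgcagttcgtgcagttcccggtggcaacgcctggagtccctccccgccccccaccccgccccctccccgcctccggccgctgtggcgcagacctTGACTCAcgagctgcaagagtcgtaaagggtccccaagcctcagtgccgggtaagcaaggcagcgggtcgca
Sema4d, chr13:51748761-51749060, minus strand: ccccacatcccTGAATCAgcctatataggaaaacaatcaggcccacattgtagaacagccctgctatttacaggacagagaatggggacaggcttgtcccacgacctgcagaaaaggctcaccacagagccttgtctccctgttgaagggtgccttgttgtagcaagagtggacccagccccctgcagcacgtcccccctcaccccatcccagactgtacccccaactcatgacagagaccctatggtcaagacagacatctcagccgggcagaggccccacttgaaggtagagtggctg
Sema4f, chr6:82939720-82940019, minus strand: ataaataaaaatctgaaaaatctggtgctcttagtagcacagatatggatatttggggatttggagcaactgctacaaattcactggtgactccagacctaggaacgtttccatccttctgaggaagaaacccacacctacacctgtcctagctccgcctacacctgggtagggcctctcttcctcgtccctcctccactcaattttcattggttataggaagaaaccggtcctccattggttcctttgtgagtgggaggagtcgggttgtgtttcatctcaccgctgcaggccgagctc
Sema7a, chr9:57939862-57940161, plus strand: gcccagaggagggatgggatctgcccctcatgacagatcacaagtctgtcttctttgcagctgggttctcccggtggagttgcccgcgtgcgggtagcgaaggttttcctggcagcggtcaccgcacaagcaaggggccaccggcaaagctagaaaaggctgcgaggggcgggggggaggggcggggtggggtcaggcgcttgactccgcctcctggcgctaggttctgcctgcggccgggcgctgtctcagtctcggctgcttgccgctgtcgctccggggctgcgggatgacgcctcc
Sema4f and Sema7a held none of the 3 motifs in these windows. A match is a run of letters and not a measured site, and the windows of Sema4c and Sema4d each belong to 1 of several start sites of the gene.

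Over both housings, 1 of the 11 plexins and neuropilins, the receptors of the semaphorins, rose and 1 fell, beside 22.4% of all genes. In SH 2 rose and 1 fell, beside 11.2%. Plxna4, a class A plexin that sensory axons use to respond to class 3 and class 6 semaphorins, lies on the minus strand at chr6:32144268-32588192 and read 91.9, 106 and 110 CPM in SH Sham and 156, 153 and 161 CPM in SH SNA. In EE it read 130, 99.8 and 100 CPM after sham and 135, 141 and 126 CPM after SNA. The SH groups stood apart, as they did for 29.4% of all genes tested, whereas in EE 1 sham sample reached the SNA range. Over both housings Plxna4 rose by 1.37-fold (log2 fold change 0.45 ± 0.073, adjusted p = 0.00022). The other class A plexins, Plxna1, Plxna2 and Plxna3, had log2 fold changes of -0.024, -0.039 and -0.24 and were not called. Plxnd1, the receptor of Sema3e and Sema4 proteins, read 90.9, 83.1 and 90.4 CPM in SH Sham and 65.8, 77.0 and 68.0 CPM in SH SNA. It read 89.5, 84.5 and 82.1 CPM in EE Sham and 68.0, 77.4 and 62.3 CPM in EE SNA, without overlap (log2 fold change -0.31 ± 0.055, adjusted p = 0.000445). Plxnb3 rose in SH (log2 fold change 0.33 ± 0.086, adjusted p = 0.0288) and read 17.1 to 18.5 CPM in SH Sham and 21.3 to 22.9 CPM in SH SNA. This call was lost without SH Sham replicate 2 or 3 or SH SNA replicate 1 or 3 and with DESeq2, limma or all 12 samples in one fit (adjusted p = 0.0632 to 0.0987). In EE the log2 fold change of Plxnb3 was 0.11 ± 0.13, which did not pass, the difference between housings was -0.20 ± 0.16 (unadjusted p = 0.215), and over both housings the adjusted p was 0.0512. Nrp1 and Nrp2, which bind class 3 semaphorins, had log2 fold changes of -0.10 ± 0.048 and -0.16 ± 0.060 (adjusted p = 0.146 and 0.071).

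Eph receptors and ephrins each had a median absolute log2 fold change of 0.15 over both housings, beside 0.12 for all genes tested. Of the 14 Eph receptors 2 fell and none rose, beside 22.4% of all genes called in either direction. Epha6 read 11.7, 9.40 and 11.7 CPM in SH Sham and 8.18, 6.34 and 6.84 CPM in SH SNA. The EE samples spread more widely, with 16.2, 12.4 and 9.83 CPM after sham and 7.12, 9.40 and 4.51 CPM after SNA. Over both housings Epha6 fell to 0.605 of the sham level (log2 fold change -0.72 ± 0.15, adjusted p = 0.0019), although 1 sham and 1 SNA sample met at 9.40 CPM. Epha7 fell by 0.37 on the log2 scale (SE 0.12, adjusted p = 0.0361), with 4.55 to 7.86 CPM after sham and 4.54 to 5.08 CPM after SNA. Its call was lost with limma and without any 1 of 6 samples, SH Sham replicate 1, SH SNA replicate 1 or 3, EE Sham replicate 1 or EE SNA replicate 1 or 2 (adjusted p = 0.055 to 0.0979 over these alternatives). The 5 Eph B receptors had no call. Among the ephrins, Efna1, a lipid-anchored ligand of Eph A receptors, read 28.0, 31.1 and 30.9 CPM in SH Sham and 36.3, 36.7 and 36.8 CPM in SH SNA. It read 27.7, 31.0 and 29.2 CPM in EE Sham and 34.4, 35.8 and 33.8 CPM in EE SNA, and all SNA samples were higher (log2 fold change 0.26 ± 0.048, adjusted p = 0.000643). Efnb2, a transmembrane ephrin, fell by 0.22 on the log2 scale (SE 0.053, adjusted p = 0.00511). Its sham samples lay between 33.1 and 39.1 CPM and its SNA samples between 28.9 and 32.6 CPM. The other 5 ephrins tested did not pass.

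Among the Slits and Robos, 2 of the 3 receptors tested fell and none of the 3 ligands was called. Over all genes tested, 22.4% were called in either direction and 11% lower. Robo1, a repulsive Slit receptor on the plus strand at chr16:72308306-73046095, read 15.6, 14.1 and 14.6 CPM in SH Sham and 10.7, 11.7 and 12.8 CPM in SH SNA. It read 18.9, 14.2 and 14.9 CPM in EE Sham and 12.5, 10.5 and 9.51 CPM in EE SNA, so that every SNA sample was below every sham sample (log2 fold change -0.45 ± 0.090, adjusted p = 0.00164). Robo2, far more abundant with 146 to 183 CPM after sham, fell by 0.18 on the log2 scale to 127 to 153 CPM (SE 0.054, adjusted p = 0.0252). Without SH Sham replicate 3, SH SNA replicate 1 or EE Sham replicate 1 or 3 the call of Robo2 was lost (adjusted p = 0.0503 to 0.0663). Robo4, known from blood vessels, had a log2 fold change of 0.11 ± 0.15. Slit1, Slit2 and Slit3 had log2 fold changes of 0.14, -0.14 and 0.25, and the lowest adjusted p among them was 0.169.

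The Unc5 receptors split. Unc5b, a netrin receptor that also binds Flrt proteins, lies on the minus strand at chr10:60762593-60831581 and fell from 11.3, 10.3 and 10.4 CPM in SH Sham to 6.35, 7.86 and 6.29 CPM in SH SNA. In EE the sham samples had 8.21, 10.0 and 9.99 CPM and the SNA samples 6.32, 7.57 and 6.45 CPM, again without overlap (log2 fold change -0.55 ± 0.091, adjusted p = 0.000235). Unc5c read 16.8 to 21.1 CPM after sham and 13.0 to 16.2 CPM after SNA, and it fell by 0.31 on the log2 scale (SE 0.072, adjusted p = 0.00428). Unc5d rose. It read 3.58, 3.23 and 2.01 CPM in SH Sham and 4.05, 5.66 and 5.09 CPM in SH SNA, and 3.07, 3.79 and 3.74 CPM in EE Sham against 4.81, 5.74 and 3.55 CPM in EE SNA. Here 1 SNA sample lay within the sham range (log2 fold change 0.58 ± 0.16, adjusted p = 0.0127), and the counts behind it were only 30 to 132 reads per sample. Unc5a, at -0.25 ± 0.11 on the log2 scale, did not pass (adjusted p = 0.127). The netrins Ntn1 and Ntn4 had log2 fold changes of 0.33 ± 0.14 and 0.28 ± 0.12 (adjusted p = 0.0966 and 0.103).

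**Figure D3:**
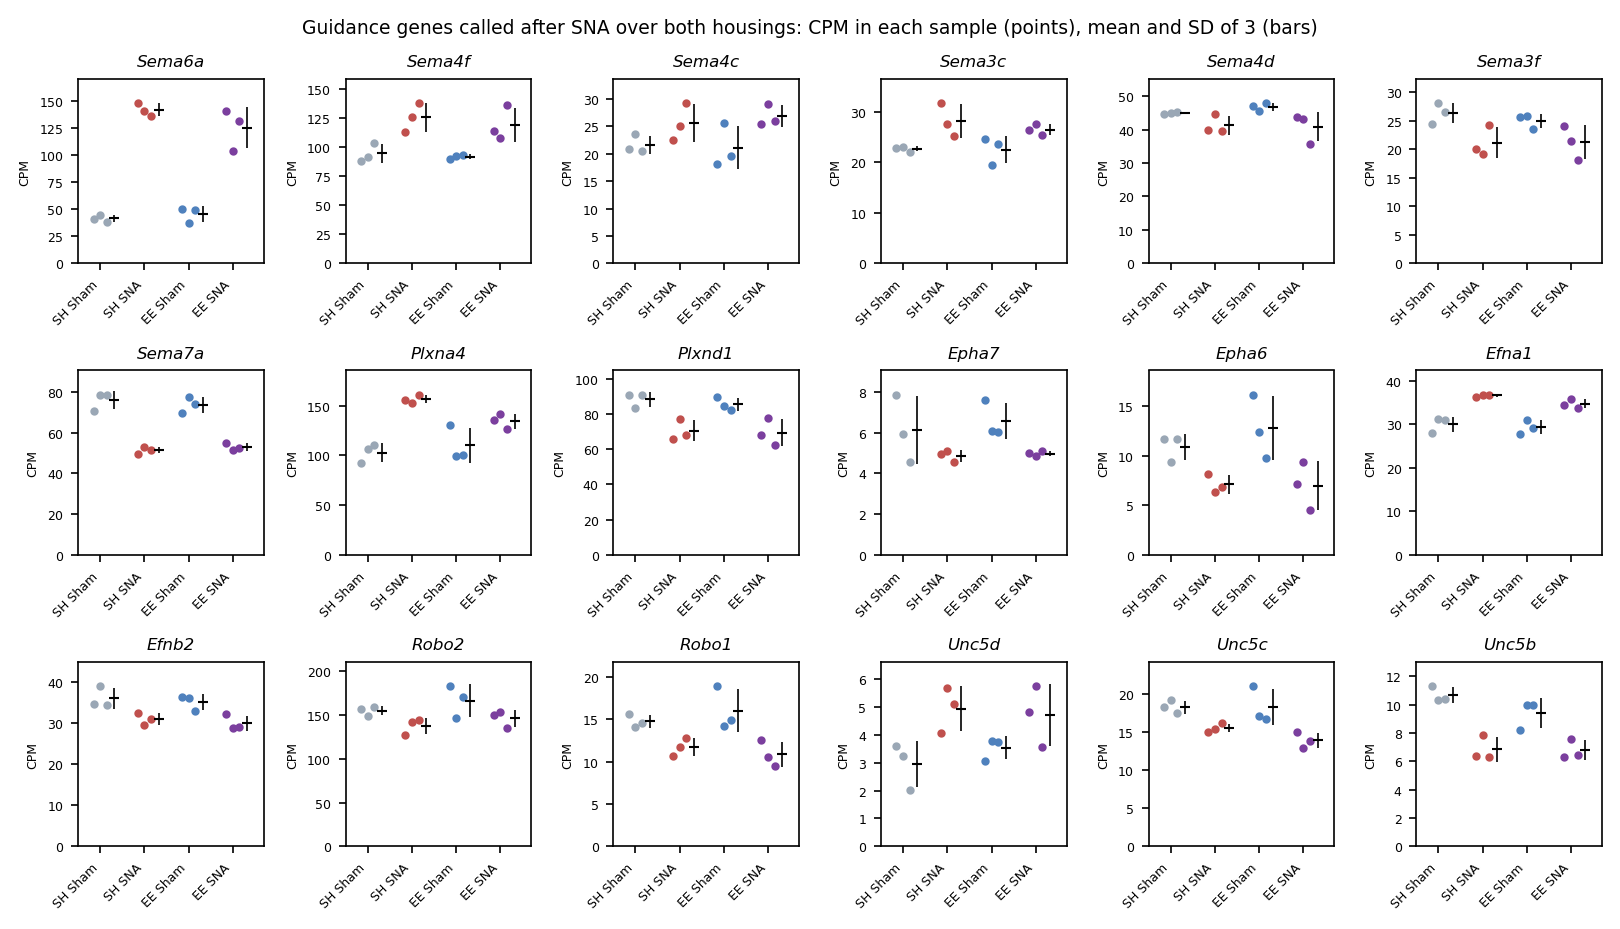
Level in CPM in each of the 12 samples (points, 3 per group) for the 18 guidance genes called after SNA over both housings, with the mean and SD of each group (bars); y axes start at 0. In Sema6a both SNA groups stand at 104 CPM or more, above the highest sham sample at 50.4 CPM.

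Of the 66 genes tested, 10 had no overlap between the 6 SNA and the 6 sham samples, beside 11.1% of all genes tested, and all 10 were among those called. Sema6a, Sema4f, Sema3c and Efna1 stood above in every SNA sample, and Sema7a, Plxnd1, Robo1, Efnb2, Unc5b and Unc5c below. Across the 20 alternative fits and left-out samples, 14 of the 18 kept their call in every one, and the calls of Epha7, Robo2, Sema4c and Sema4d were those lost in at least 1.

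Partners of these families that carry other names were examined as a list of 27 genes. After SNA over both housings 6 rose and 10 fell, beside 11.4% and 11% of all genes. The list was chosen with earlier results of these data known, so an excess over all genes cannot be read as an independent finding. Flrt3, a membrane protein that binds Unc5 receptors and Robo1, read 41.6, 42.5 and 37.1 CPM in SH Sham and 171, 149 and 145 CPM in SH SNA. In EE it read 52.8, 41.3 and 55.0 CPM after sham and 164, 131 and 160 CPM after SNA (log2 fold change 1.77 ± 0.084, adjusted p = 1.54e-10). This was of the size of the Sema6a change, and the 2 groups of samples were far apart. Flrt1 and Flrt2 fell, by 0.42 and 0.24 on the log2 scale (adjusted p = 0.0154 and 0.0364). The netrin-G proteins, which are membrane-anchored relatives of netrins that bind other receptors, fell together with those receptors. Ntng1 read 29.3 to 39.9 CPM after sham and 21.0 to 24.7 CPM after SNA (log2 fold change -0.59 ± 0.066, adjusted p = 5.32e-06), and Ntng2 fell by 0.45 on the log2 scale (adjusted p = 0.000793). Their receptors Lrrc4c and Lrrc4 fell by 0.27 and 0.36 (adjusted p = 0.00594 and 0.00312). Dscam and Dscaml1, cell adhesion molecules of which Dscam can act as a netrin receptor, fell by 0.59 and 0.90 (adjusted p = 0.000102 and 0.0263), with Dscaml1 at no more than 2.62 CPM. Nell2, a secreted ligand of Robo3, fell by 0.49 (adjusted p = 0.001), and Draxin, a secreted netrin and Dcc ligand, rose by 0.51 ± 0.18 (adjusted p = 0.0456). Itgb1, the beta subunit of the integrins that Sema7a can bind, rose from 394 to 445 CPM after sham to 487 to 558 CPM after SNA (log2 fold change 0.35 ± 0.044, adjusted p = 2.04e-05).

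Proteins that carry guidance signals inside the cell were a list of 43 genes, also chosen with earlier results of these data known. Of these, 9 rose and 6 fell, beside the same 11.4% and 11% of all genes. Rnd1, a small GTPase that binds plexins, was the largest of these. It read 1.70, 2.65 and 1.67 CPM in SH Sham and 7.11, 5.07 and 4.93 CPM in SH SNA, and 2.71, 2.81 and 2.44 CPM in EE Sham against 7.21, 4.87 and 5.16 CPM in EE SNA. All SNA samples were higher (log2 fold change 1.30 ± 0.16, adjusted p = 1.28e-05). Rock2, a kinase that acts on the actin cytoskeleton, rose by 0.41 ± 0.054 (adjusted p = 3.2e-05), Ptk2, the focal adhesion kinase, by 0.33 ± 0.046 (adjusted p = 5.26e-05), and Crmp1, of the collapsin response mediator proteins that relay Sema3 signals, by 0.29 ± 0.046 (adjusted p = 0.000216). The adaptor Nck2 and the kinase Abl2 rose by 0.29 and 0.28 (adjusted p = 0.0281 and 0.000895). Limk1, which phosphorylates cofilin, and Vav3, an exchange factor of Rac, fell by 0.29 and 0.28 on the log2 scale (adjusted p = 0.000128 and 0.00968). The median log2 fold change of the list was 0.038, and that of the partners was -0.013.

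A second question was whether the response to SNA was the same in both housings, whose 2 contrasts share no sample. In SH 9 of 66 guidance genes changed, 5 higher and 4 lower, beside 11.2% of all genes, and in EE 4 changed, 2 higher and 2 lower, beside 4.83%. At an unadjusted p of 0.05 the counts were 21, beside 25.2% of all genes, and 22, beside 20.6%. The genes called in SH were Sema6a, Sema4f, Plxna4, Plxnb3 and Efna1, which rose, and Sema7a, Plxnd1, Epha6 and Unc5b, which fell. Those called in EE were Sema6a and Sema4f, which rose, and Sema7a and Robo1, which fell. Without EE Sham replicate 2 the count in EE was 7. Without EE Sham replicate 3 or EE SNA replicate 3 it was 2, since Sema4f and Robo1 were then lost, as they were with limma. Both calls were also lost without EE Sham replicate 1, that of Sema4f without EE SNA replicate 1 and that of Robo1 without EE SNA replicate 2. Over these losses the adjusted p was 0.0733 to 0.107 for Sema4f and 0.0876 to 0.129 for Robo1. In SH the call of Efna1 was lost without SH Sham replicate 1 or SH SNA replicate 1 or 3 (adjusted p = 0.0642 to 0.104), and that of Epha6 with all 12 samples in one fit (adjusted p = 0.0831). The direction was the same in both housings for 53 of the 66 genes (80.3%), beside 74.1% of all genes tested, and for all 9 genes called in SH. Across the 66 genes the log2 fold changes of both housings had a Pearson r of 0.749 and a Spearman rho of 0.686, and an r of 0.626 without Sema6a. Over all genes tested r was 0.642. These are descriptions across genes, which are not independent replicates.

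**Figure D4:**
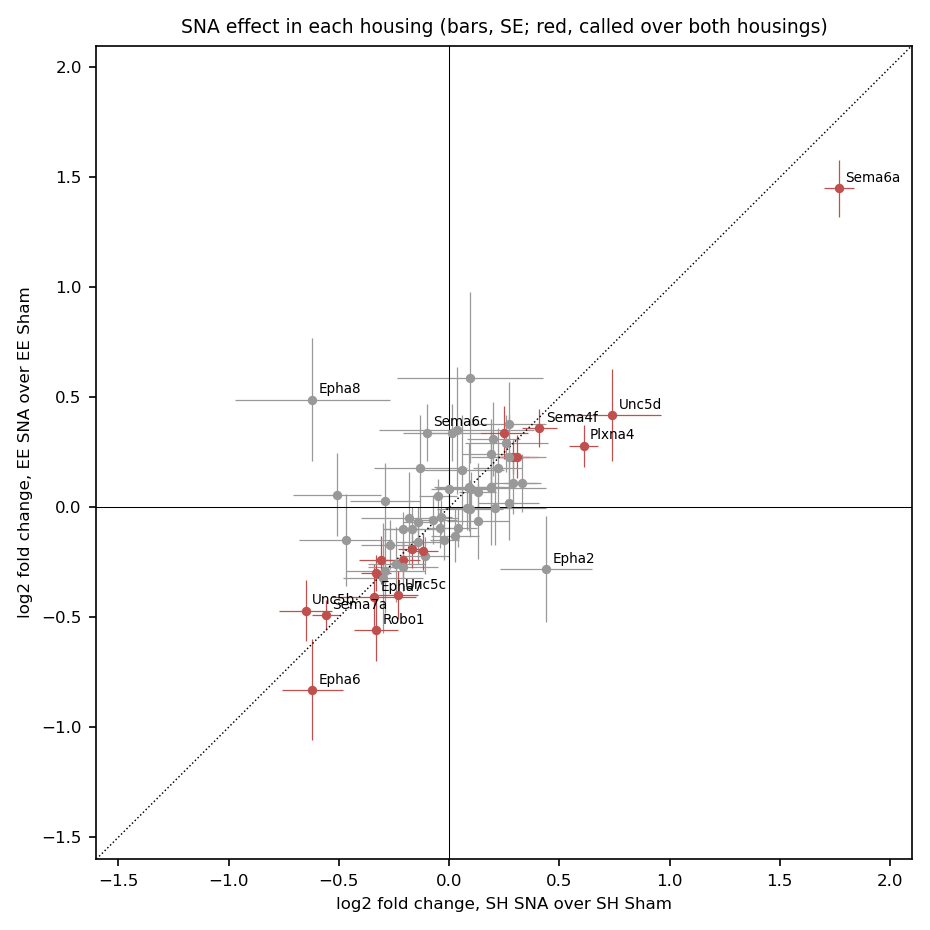
Log2 fold change of SNA in standard housing (x axis) and in EE (y axis) for the 66 guidance genes tested; bars are SE, red marks the genes called over both housings, and the dotted line marks equal change. Sema6a lies at 1.77 and 1.45, and Epha8, Sema6c and Epha2 lie in the quadrants of opposite sign.

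The difference between housings in the SNA response was tested by the interaction term of edgeR on 12 samples. None of the 66 genes passed the adjusted threshold, as was so for all 16238 genes (0%), and 4 were called at an unadjusted p of 0.05, beside 2.61% of all genes. Plxna4 rose less in EE than in SH, by log2 fold changes of 0.28 ± 0.096 and 0.61 ± 0.067, a difference of -0.32 ± 0.13 (unadjusted p = 0.0255, adjusted p = 1). Its EE SNA samples, at 126 to 141 CPM, were all below its SH SNA samples, at 153 to 161 CPM. Over all genes tested, these 2 groups did not overlap, in either direction, for 10.4%. Sema6c, a transmembrane semaphorin like Sema6a, had log2 fold changes of -0.10 in SH and 0.34 in EE (difference 0.45 ± 0.18, unadjusted p = 0.0244). Epha2 had 0.44 in SH and -0.28 in EE (difference -0.71 ± 0.32, unadjusted p = 0.0419), and Epha8 -0.62 and 0.49 (difference 1.12 ± 0.43, unadjusted p = 0.0182). Epha8 rested on 7 to 29 reads per sample and Epha2 on 30 to 83. For Sema6a, which rose by 1.77 ± 0.067 in SH and 1.45 ± 0.13 in EE on the log2 scale, the difference was -0.32 ± 0.16 (unadjusted p = 0.0627). The SE of the interaction had a median of 0.18 over the 66 genes.

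The third question was whether housing itself moved guidance genes. No guidance gene passed the adjusted threshold for EE in edgeR's test, in the sham samples (beside 0.00616% of all genes), after SNA (0%) or over both surgeries (0%). At an unadjusted p of 0.05 the counts were 2 in the sham samples, 4 after SNA and 4 over both surgeries, beside 2.97%, 4.1% and 4.69% of all genes. Over both surgeries the log2 fold changes of the 66 genes lay between -0.41 and 0.32, with a median SE of 0.091. The lowest was that of Ephb2, an Eph receptor for ephrin-B ligands that lies on the minus strand at chr4:136647539-136835988. It read 5.04, 5.02 and 4.81 CPM in SH Sham and 5.35, 6.51 and 6.05 CPM in SH SNA. In EE it read 4.51, 3.95 and 3.74 CPM after sham and 3.74, 4.57 and 3.95 CPM after SNA. All 6 EE samples were below all 6 SH samples, and the log2 fold change was -0.41 ± 0.10 (unadjusted p = 0.000873, adjusted p = 0.65). Over all genes tested, EE and SH samples did not overlap, in either direction, for 0.135%. Ephb4, its relative with a role in blood vessels, went the other way after SNA, with 10.6, 10.1 and 9.23 CPM in SH SNA and 13.6, 14.4 and 12.5 CPM in EE SNA (log2 fold change 0.44 ± 0.11, unadjusted p = 0.00162, adjusted p = 0.989). Its sham samples overlapped, at 8.56 to 11.8 CPM in SH and 8.66 to 11.7 CPM in EE. Endothelial markers summed to 91.1 to 106 CPM in SH SNA and 103 to 115 CPM in EE SNA, and their part in the value of Ephb4 was not tested. Ephb6 and Nrp2 had log2 fold changes of -0.19 and -0.14 over both surgeries (unadjusted p = 0.0301 and 0.0368). Epha2 in the sham samples stood at 2.29, 2.22 and 2.94 CPM in SH and 2.71, 5.16 and 3.98 CPM in EE (log2 fold change 0.68 ± 0.24, unadjusted p = 0.0118), with overlap.

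**Figure D5:**
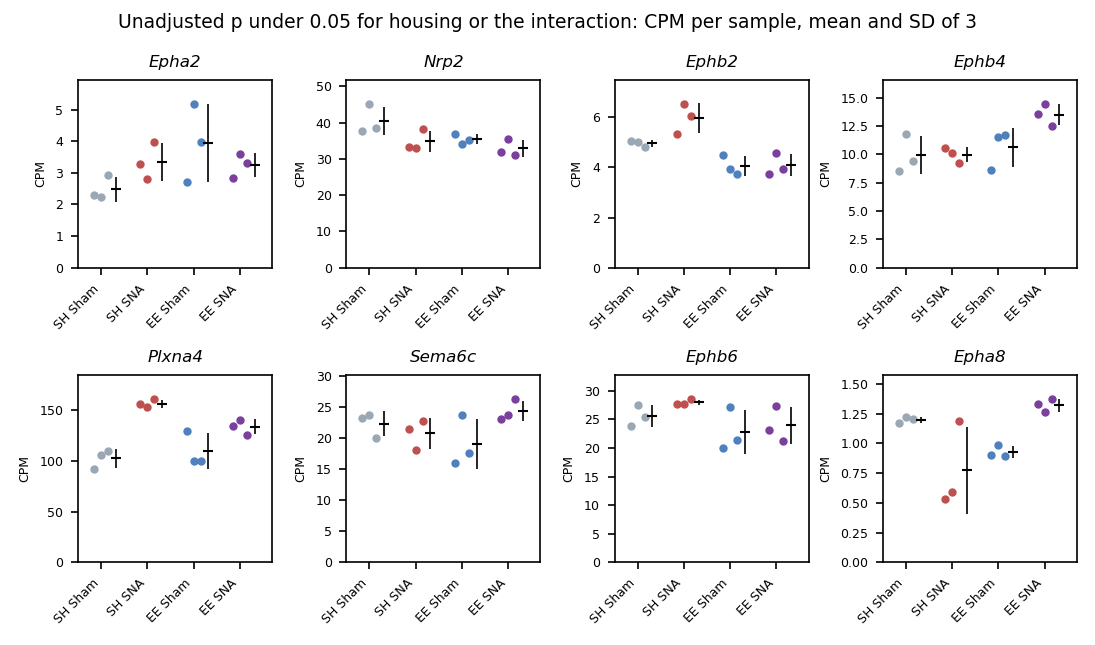
Level in CPM in each of the 12 samples (points, 3 per group) for the 8 guidance genes with an unadjusted p under 0.05 for housing or for the interaction, with the mean and SD of each group (bars); y axes start at 0. For Ephb2 the 6 EE samples lie at 4.57 CPM or below and the 6 SH samples at 4.81 CPM or above.

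The combined condition was compared with the sham-operated control in standard housing, EE SNA against SH Sham. Here 13 of 66 guidance genes changed, 6 higher and 7 lower, beside 12.5% of all genes, and 22 at an unadjusted p of 0.05, beside 27.2%. This comparison shares its SH Sham samples with SNA in SH. Sema6a rose by 1.58 ± 0.10 on the log2 scale and Sema7a fell by 0.52 (adjusted p = 3.16e-06 and 0.000347). Ephb4, Ntn4 and Nrp2 had log2 fold changes of 0.45, 0.50 and -0.29 here (adjusted p = 0.0365, 0.0217 and 0.0407). For Ephb4 the log2 fold change of SNA was 0.011 in SH and 0.34 in EE. The other called genes were Sema4c, Sema4f and Plxna4, which rose, and Plxnd1, Robo1, Efnb2, Unc5b and Unc5c, which fell. The count was 5 without SH Sham replicate 1, 8 without SH Sham replicate 3 or EE SNA replicate 1, and 6 with limma on FPKM. The shares of all genes in these fits are not given here.

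The 5 genes that did not pass the filter were Sema3a, Efna4, Robo3, Dcc and Unc5cl, and they were not tested. Sema3a, the repellent of nociceptive axons, had 1 to 2 reads per SH sample and 2 to 10 per EE sample. Dcc, the attractive netrin receptor, had 1 to 14 reads in a sample, Efna4 2 to 9, Robo3 2 to 4 and Unc5cl 0 to 3. In CPM every EE sample of Sema3a, at 0.162 to 0.806, stood above every SH sample, at 0.0587 to 0.134. Such separation held for 0.135% of the genes tested, which did not include Sema3a. At so few reads no difference between groups is concluded for any of these 5 genes. Reads of a gene and of a gene on the opposite strand cannot be told apart where their exons overlap, since the strand setting of the counting is not given in the sources used here. Such overlap covered 23.4% of the exon bases of Ntn5, 14.1% of Efna3 and 10.7% of Plxna1. Among the genes called over both housings it covered 7.27% of Sema4c, 2.02% of Epha6, 0.78% of Plxna4 and 0.617% of Unc5c.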

How the data were processed

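RNA of 12 samples of sciatic DRG was sequenced as paired reads from poly(A) libraries. Per the labels and the study's methods, the authors aligned the reads to mm10 with TopHat2 2.0.12 and Bowtie2 2.2.3 and summed them by gene name in HTSeq. The deposited table holds whole read counts, not normalized. A second deposited table holds FPKM that the authors computed per gene, which were used for levels and for the limma alternatives. Replicates were separate pools of mice and were not merged.

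In edgeR 4.0.16 under R 4.3.3, TMM factors scaled the libraries, and genes were filtered with filterByExpr (10 counts, a total of 15) given the 4 groups, which left 16238 genes, then fitted with glmQLFit. CPM are TMM-scaled. Tests were quasi-likelihood F tests, two-sided, each comparison of 2 groups on its own 6 samples, SNA or EE over both levels of the other factor and the interaction on all 12. P-values were adjusted by Benjamini-Hochberg over all genes tested, and the spread they measure is that between pools. The fit was tested on simulated data. The depth of 11343579 to 22871460 reads limits genes of a few reads, and intervals cover no more than the spread between samples.

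Alternatives were the likelihood ratio test of edgeR, DESeq2 1.42.0, library size only, no filter, 10 counts in every sample (14736 genes), the replicate block, all 12 samples in one fit, limma 3.58.1 on log2 of FPKM plus 1 or plus 0.1, and leaving out each sample. Genes were named by rule: per family up to 5 called after SNA by size among those of at least 1 CPM, those past an unadjusted p of 0.05 for housing or the interaction, the highest by FPKM, those below the filter, and up to 8 called per list of partners and mediators. Other called members were named after their values were seen. The called partners Flrt2, Lrrc4, Lrrc4c and Itgb1 were named outside this rule, while others, among them Ptprs, Chl1 and Adam10, were left out. The members and lists were chosen with earlier results of these data known. Positions are on GRCm38, from GENCODE, and promoters from RefSeq.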

Additional observations from a re-analysis of the deposited data

Results flagged for a closer look

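In the interaction test of edgeR, the response to SNA differed between housings at an unadjusted p of 0.05 for 4 guidance genes. This was beside 2.61% of all genes, and none of the 4 passed adjustment over all genes. The difference, EE minus SH in log2 fold change, was 1.12 for Epha8, 0.45 for Sema6c, -0.32 for Plxna4 and -0.71 for Epha2, each with an adjusted p of 1.

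Sema3a lay below the filter and entered no test. Its reads added up to 29 over the 6 EE samples and to 7 over the 6 SH samples, with 2 to 10 reads per EE sample and 1 to 2 per SH sample. Groups of 3 samples were not examined for outlying samples.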

How the results depend on the processing

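Of the 19 guidance genes called after SNA over both housings or in 1 housing, the log2 fold change over both housings kept its sign in all 380 recalculations, the adjusted call was lost in 21 (Epha7, Robo2, Sema4c and Sema4d) and gained in 4 (Plxnb3). The number of guidance genes called for SNA in EE, 4, was 7 with the likelihood ratio test of edgeR, 12 without a filter, 2 with limma on log2 of FPKM plus 1 or plus 0.1, 9 with all 12 samples in one fit and 2 to 7 when 1 sample was left out. For EE SNA against SH Sham, 13 were called, 6 with limma at either pseudocount and 5 to 10 when 1 sample was left out. The other counts stayed within 1.5 times. In the main fits 4.83% of all genes were called for SNA in EE and 12.5% for EE SNA against SH Sham. The shares of all genes under the other settings are not given here. The shifts in count are therefore not read as particular to the guidance genes, and their cause was not tested. Same-numbered samples did not deviate together in every comparison: the lowest correlation of a pair was -0.27 for SNA in SH, -0.154 for SNA in EE, 0.059 for EE in Sham, 0.0868 for EE in SNA and -0.193 for EE SNA with SH Sham, over 15344 genes. For EE in SNA the same-numbered pairs, at 0.0868 to 0.118, all lay above the other pairs, at -0.133 to 0.0408. For EE in Sham they lay at 0.059 to 0.37 and the other pairs at -0.383 to 0.214. The numbers were not taken as pairing in the main fits, and a batch shared by same-numbered samples was not tested. With the replicate block the counts were 18 for SNA over both housings, 9 in SH, 6 in EE, 11 for EE SNA against SH Sham and 0 for each test of EE and the interaction. Genes of few reads, such as Epha8 and Unc5d, have wide errors at this depth, and with 3 samples a group small differences between housings were not resolved.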
